A study of Mus musculus with 12 samples.

Results

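The miR-26 family of the mouse comprises mmu-mir-26a-1, its copy mmu-mir-26a-2, and mmu-mir-26b, and these 3 precursors were taken by name from the 589 in the deposited table. They were chosen because they give rise to miR-26a and miR-26b and lie in genes of the Ctdsp group, not by a measured value, although earlier results of these data were known. As background, Ctdspl, Ctdsp2 and Ctdsp1 encode small phosphatases of the C-terminal domain of RNA polymerase II, which act as cofactors of REST, a repressor of neuronal genes outside neurons. MiR-26 is known to repress Ezh2, the methyltransferase of the Polycomb group.

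Small RNA was sequenced from the cerebral cortex of female C57BL/6J mice that were 7 weeks old at the start of 5 months of treatment. WT mice drank water, WT + EtOH mice drank water with 10% (v/v) ethanol, and TLR4-KO and TLR4-KO + EtOH mice, which lack Toll-like receptor 4 in the whole body, were kept in the same 2 ways. There were 3 libraries per group, and a library was made from a pool of 3 mice, so an SD is the spread between pools and a p-value measures only that spread. Small RNA holds no Tlr4 transcript, and the genotype could not be checked.

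All 3 members had an entry among the RefSeq miRNA sequences (GRCm38.p6), and the mature sequences are shown because they define the family. Capitals mark the seed, bases 2 to 8, through which a miRNA recognizes its targets.
miR-26a-5p: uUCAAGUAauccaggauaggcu
miR-26b-5p: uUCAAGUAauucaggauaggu
The seed UCAAGUA was shared by miR-26a-5p and miR-26b-5p and by no other of the 1679 mature names. The 2 sequences were identical at 19 of 21 positions and differed by C11U and C21U, counted from the 5′ end of miR-26a-5p, and miR-26a-5p was 1 base longer, with 22 bases. Thus, both substitutions lie outside the seed.

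The copies of miR-26a differ only outside the mature 5p sequence, as the hairpins show, in which capitals mark that sequence.
mmu-mir-26a-1: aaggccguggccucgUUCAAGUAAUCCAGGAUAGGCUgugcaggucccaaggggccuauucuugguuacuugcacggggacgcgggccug
mmu-mir-26a-2: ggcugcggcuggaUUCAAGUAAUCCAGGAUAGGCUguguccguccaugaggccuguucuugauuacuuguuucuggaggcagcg
mmu-mir-26b: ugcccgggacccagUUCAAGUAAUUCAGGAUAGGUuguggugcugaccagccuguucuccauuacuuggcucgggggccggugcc
A read of miR-26a-5p cannot be assigned to mmu-mir-26a-1 or mmu-mir-26a-2 by its sequence. Therefore, the values of these 2 precursors are not independent measurements, and how the authors divided such reads is not stated. The 3p arms of the family are shown with their own seeds in capitals because they differ between the copies.
miR-26a-1-3p: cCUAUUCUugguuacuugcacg
miR-26a-2-3p: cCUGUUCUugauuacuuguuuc
miR-26b-3p: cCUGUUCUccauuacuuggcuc
The seed CUGUUCU was common to miR-26a-2-3p and miR-26b-3p, and miR-26a-1-3p had CUAUUCU. The table gives 1 value per precursor, so the arms could not be separated.

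On GRCm38, each member lay on the strand of its host gene. The hairpin of mmu-mir-26a-1 (90 bases) was at chr9:119031796-119031885, in intron 4 or 5 of Ctdspl, depending on the transcript. The hairpin of mmu-mir-26a-2 (84 bases) was at chr10:126995530-126995613, in intron 5 of Ctdsp2, and overlapped an exon of 2 transcripts by 1 base. The hairpin of mmu-mir-26b (85 bases) was at chr1:74394310-74394394, in intron 4 of Ctdsp1. The 3 members thus lie on 3 chromosomes, and the host mRNAs were not measured in these libraries.

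The deposited value is a score without a unit, on a scale that behaves like a scaled logarithm after quantile normalization, so that it depends on the rank of a precursor within its library. Differences are therefore given in score units and are not folds, and how the length of a miRNA was handled is not stated, so levels of different precursors are compared as ranks of this score. Of the 589 precursors, 265 were at 0 in all 12 libraries, 324 were above 0 in at least 1, and the 3 members were among the 190 above 0 in all 12.

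In the ranking by mean score over the 12 libraries, mmu-mir-26a-1 was 5th and mmu-mir-26a-2 6th of 324, with means of 111.0 and 110.4. MiR-26b was 78th, with a mean of 54.1. Hence, the family holds 2 of the precursors with the highest scores in the cortex and 1 of intermediate level. As reads of miR-26a-5p cannot be assigned to a copy, the 2 high scores do not show that both precursors are abundant. The SD over the 12 libraries was 3.80 for mmu-mir-26a-1, 3.98 for mmu-mir-26a-2 and 5.83 for mmu-mir-26b, beside a median of 4.51 over 190 precursors.

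The score of mmu-mir-26a-1 was 115.5, 115.5 and 115.5 in the WT libraries (replicates 1, 2 and 3), 106.4, 111.3 and 110.4 in WT + EtOH, 102.3, 111.3 and 111.3 in untreated TLR4-KO, and 110.4, 111.3 and 110.4 in TLR4-KO + EtOH. All 9 libraries of the other groups lay below the 3 WT libraries, and those 9 overlapped among the 3 groups. For mmu-mir-26a-2 the score was 114.9, 114.9 and 114.9 in WT, 104.9, 110.4 and 111.3 in WT + EtOH, 101.4, 110.4 and 110.4 in untreated TLR4-KO, and 109.3, 110.4 and 111.3 in TLR4-KO + EtOH. Again, WT was separate from the other groups, which overlapped. For mmu-mir-26b it was 62.3, 62.3 and 62.0 in WT, 46.9, 51.9 and 55.0 in WT + EtOH, 45.4, 50.0 and 55.3 in untreated TLR4-KO, and 49.2, 53.6 and 55.0 in TLR4-KO + EtOH. The 3 WT libraries were the highest here too, and the lowest library was replicate 1 of TLR4-KO for all 3 members. In such bulk samples, fewer cells of a type and less RNA per cell cannot be told apart.

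**Figure D1:**
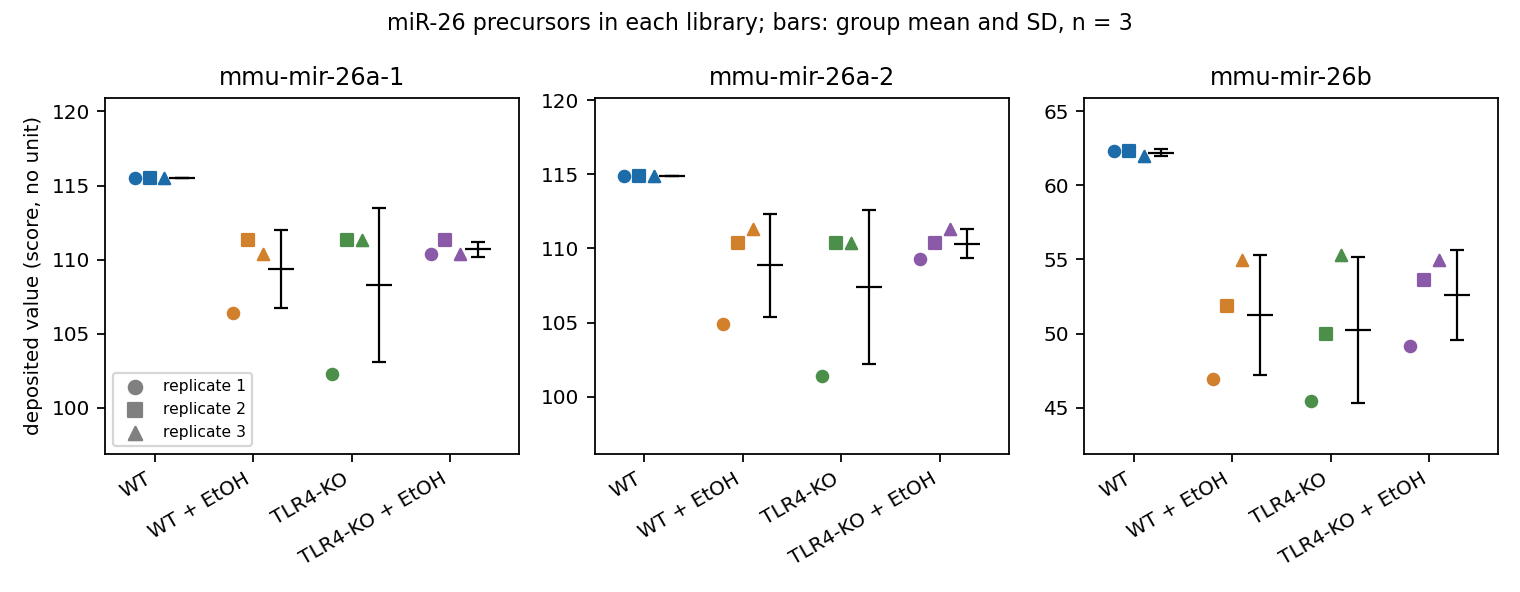
Deposited score (y axis) of each miR-26 precursor in the 4 groups (x axis); points are libraries, marked by replicate number, and bars give the group mean and SD (n = 3). For mmu-mir-26b, the WT libraries lie at 62.0 to 62.3 and the other 9 at 45.4 to 55.3.

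The order of the group means was the same for the 3 members: WT, TLR4-KO + EtOH, WT + EtOH, TLR4-KO. The mean ± SD of mmu-mir-26a-1 was 115.5 ± 0 in WT, 110.7 ± 0.501 in TLR4-KO + EtOH, 109.4 ± 2.62 in WT + EtOH and 108.3 ± 5.19 in TLR4-KO. That of mmu-mir-26a-2 was 114.9 ± 0, 110.4 ± 0.983, 108.9 ± 3.46 and 107.4 ± 5.24 in this order. That of mmu-mir-26b was 62.2 ± 0.212, 52.6 ± 3.03, 51.3 ± 4.07 and 50.2 ± 4.93. Only the step from WT to the next group exceeded the spread, and the other neighbours did not differ beyond it.

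By rank within the library, mmu-mir-26a-1 was 3rd and mmu-mir-26a-2 4th in each WT library. In the other 9 libraries, mmu-mir-26a-1 held ranks 5 to 11 and mmu-mir-26a-2 ranks 5 to 12. The SD of 0 in WT thus reflects a fixed rank, since the first ranks carry the same score in all libraries. MiR-26b was at ranks 62, 62 and 63 in WT, 100, 85 and 78 in WT + EtOH, 105, 91 and 76 in untreated TLR4-KO, and 94, 81 and 77 in TLR4-KO + EtOH. Its displacement thus spans many places in the middle of the ranking, where neighbouring ranks differ by little. The mean step was 0.514 between ranks 60 and 70 and 0.279 between ranks 100 and 110, but 1.53 between ranks 3 and 13.

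The places that miR-26a held in WT were taken in the other 9 libraries by mmu-mir-125b-2 and also mmu-mir-125a, whose sequences are shown, with the seed in capitals, because they held ranks 3 and 4 there.
miR-125a-5p: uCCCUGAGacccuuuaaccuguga
miR-125b-5p: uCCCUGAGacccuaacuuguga
Ranks 1 and 2 belonged to the copies of mmu-mir-181a in all 12 libraries. In limma, mmu-mir-125b-2 was higher in WT + EtOH than in WT by 4.77 (SE 0.285; adjusted p = 3.22e-05) and mmu-mir-125a by 4.22 (SE 0.497; adjusted p = 0.00437), and both rose. The step from rank 4 to rank 5 alone was 3.57. The scores of miR-26a can take only the values of these ranks, and the corresponding change in reads was not measured.

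Chronic ethanol in WT mice was accompanied by lower scores of all 3 members, although none passed the test over the whole table. In WT + EtOH vs. WT, mmu-mir-26b differed by -10.97 (limma, SE 2.83, 95% interval -17.5 to -4.47, adjusted p = 0.120), lower in 3 of 3 libraries. The difference of mmu-mir-26a-1 was -6.12 (limma, SE 2.34, interval -11.5 to -0.764, adjusted p = 0.283), and that of mmu-mir-26a-2 -5.99 (SE 2.55, interval -11.8 to -0.153, adjusted p = 0.377). Thus, limma called 0 of 3 members at an adjusted p below 0.05, with 3 of 3 at an unadjusted p below 0.05, beside 10 called of 589 precursors (1.7%) and 74 unadjusted. These 589, here and in the comparisons below, include the 265 at 0 in all libraries, which could not be called and which lower this share. The 3 libraries of WT + EtOH lay below all 3 of WT for 3 of 3 members (exact permutation p = 0.1, the smallest possible with 3 against 3), as for 56 of 324 precursors (17.3%). The call depended on the setting: with a replicate block, limma called mmu-mir-26b (adjusted p = 0.04; 0.0101 to 0.336 over its alternatives), and without replicate 1 of TLR4-KO it called mmu-mir-26a-1 (adjusted p = 0.0316; 0.023 to 0.787).

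The knockout without ethanol gave differences in the same direction. In TLR4-KO vs. WT, mmu-mir-26b differed by -11.99 (limma, SE 2.83, interval -18.5 to -5.49, adjusted p = 0.0709), lower in 3 of 3 libraries. For mmu-mir-26a-1 the difference was -7.19 (limma, SE 2.34, interval -12.5 to -1.83, adjusted p = 0.187), and for mmu-mir-26a-2 -7.46 (SE 2.55, interval -13.3 to -1.63, adjusted p = 0.217). Without replicate 1 of TLR4-KO, these 2 were -4.19 and -4.44, so their size depended on that library. No member was called (0 of 3 by limma, 3 of 3 unadjusted), beside 15 of 589 precursors (2.55%), with 72 unadjusted. The groups did not overlap for 3 of 3 members, nor for 50 of 324 precursors that were lower (15.4%). Here too, a replicate block led to a call of mmu-mir-26b by limma (adjusted p = 0.02; 0.0027 to 0.234 over its alternatives), as did leaving out replicate 3 of TLR4-KO (adjusted p = 0.0305). Both comparisons use the same 3 WT libraries, so their likeness is not independent evidence.

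TLR4-KO + EtOH vs. WT, which is not a comparison of the study, uses those WT libraries as well. The difference was -9.61 for mmu-mir-26b (limma, SE 2.83, interval -16.1 to -3.12, adjusted p = 0.190), -4.77 for mmu-mir-26a-1 (SE 2.34, adjusted p = 0.563) and -4.51 for mmu-mir-26a-2 (SE 2.55, adjusted p = 0.722). Limma called 0 of 3 members here (1 of 3 unadjusted, mmu-mir-26b), beside 11 of 589 precursors (1.87%), with 63 unadjusted. The groups did not overlap for 3 of 3 members and, in the lower direction, for 50 of 324 precursors (15.4%). In 23 of 324 precursors (7.1%), all 9 libraries of the other groups were below all 3 of WT, and the 3 members of the family were among these 23.

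Within the knockout, the scores with and without ethanol overlapped. In TLR4-KO + EtOH vs. TLR4-KO, mmu-mir-26b differed by 2.37 (limma, SE 2.83, interval -4.12 to 8.87, adjusted p = 1), mmu-mir-26a-1 by 2.42 (interval -2.94 to 7.77) and mmu-mir-26a-2 by 2.95 (interval -2.88 to 8.78). Without replicate 1 of TLR4-KO, these were -0.0210, -0.579 and -0.0751, so the sign rested on 1 library. The libraries of these groups overlapped for each member (exact permutation p = 0.7 to 1). Limma called 0 of 3 members, with 0 unadjusted, beside 2 of 589 precursors (0.34%), with 41 unadjusted. The intervals are wide, so these libraries do not show that miR-26 was equal in the 2 groups.

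Among the ethanol-treated mice, the scores of the genotypes overlapped. In TLR4-KO + EtOH vs. WT + EtOH, the difference was 1.35 for mmu-mir-26a-1 (limma, interval -4.01 to 6.70), 1.47 for mmu-mir-26a-2 (interval -4.36 to 7.30) and 1.35 for mmu-mir-26b (interval -5.14 to 7.85), each with an adjusted p of 1. Without replicate 1 of WT + EtOH, these were -0.145, -0.509 and -0.813, so this sign also rested on 1 library. The libraries overlapped for each member (exact permutation p = 0.7 to 0.9), and limma called 0 of 3, with 0 unadjusted, beside 3 of 589 precursors (0.509%), with 27 unadjusted.

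The difference between the ethanol effects of the 2 genotypes was tested directly. For mmu-mir-26b it was 13.3 (limma, SE 4.01, interval 4.16 to 22.5, adjusted p = 0.205), for mmu-mir-26a-1 8.53 (SE 3.31, adjusted p = 0.337) and for mmu-mir-26a-2 8.94 (SE 3.6, adjusted p = 0.351). Leaving out 1 library, mmu-mir-26b ranged from 10.94 to 15.87, mmu-mir-26a-1 from 5.54 to 10.03 and mmu-mir-26a-2 from 5.91 to 10.45. Limma called 0 of 3 members, with 3 of 3 unadjusted, beside 7 of 589 precursors (1.19%), with 74 unadjusted. This contrast also rests on the 3 WT libraries. A difference of the ethanol effect of miR-26 between WT and TLR4-KO mice was therefore not established. The moderated F test of limma over the 4 groups did not call mmu-mir-26b (adjusted p = 0.171), mmu-mir-26a-1 (adjusted p = 0.424) or mmu-mir-26a-2 (adjusted p = 0.476).

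The gap between miR-26a and miR-26b within a library was compared as well. The mean of both miR-26a precursors minus mmu-mir-26b was 53.0 ± 0.214 in WT, 57.9 ± 1.73 in WT + EtOH, 57.6 ± 2.86 in untreated TLR4-KO and 57.9 ± 2.49 in TLR4-KO + EtOH. Against WT, this gap was larger by 4.91 in WT + EtOH, by 4.66 in TLR4-KO and by 4.97 in TLR4-KO + EtOH, without overlap (exact permutation p = 0.1 each, adjusted p = 0.167 over 5 comparisons). Leaving out 1 library, these ranged from 4.35 to 5.91, from 3.03 to 5.69 and from 3.59 to 6.00 in this order. In ranks, the gap was 22.3, 25.0 and 20.2 places larger than in WT. The 3 groups were thus fully separate from WT, and 0.1 is the smallest p that 3 against 3 can give, so this test could not pass 0.05 and leaves the difference in displacement between mmu-mir-26b and miR-26a undecided.

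The members followed each other over the 12 libraries. Pearson r was 0.984 for mmu-mir-26a-1 with mmu-mir-26a-2, which share their mature 5p sequence, 0.895 for mmu-mir-26a-1 with mmu-mir-26b, and 0.913 for mmu-mir-26a-2 with mmu-mir-26b. After subtraction of the group means, r was 0.968, 0.751 and 0.850 in this order. Thus, the members also varied together between the pools of a group. Replicate 1 was the lowest of its group for mmu-mir-26b in WT + EtOH (46.9), TLR4-KO (45.4) and TLR4-KO + EtOH (49.2). These libraries also had more precursors above 0, at 270, 262 and 262, than replicates 2 and 3 of the same groups, at 233 and 229, 229 and 216, and 247 and 236. The WT libraries had 270, 260 and 260. The table holds no counts, so depth could not be computed from it, and the part of depth in the score of miR-26 was not tested.

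The precursors with the most similar profiles were sought among 185, by Pearson r over the 12 libraries and with 5 kept per member. For mmu-mir-26b these were mmu-mir-9-1 (0.966), mmu-mir-136 (0.962), mmu-mir-28a (0.961), mmu-mir-3071 (0.955) and mmu-mir-192 (0.951). For mmu-mir-26a-2 they were mmu-mir-28a (0.922), mmu-mir-16-1 (0.919), mmu-mir-16-2 (0.899), mmu-mir-192 (0.898) and mmu-mir-9-1 (0.880). For mmu-mir-26a-1 they were mmu-mir-28a (0.921), mmu-mir-16-1 (0.883), mmu-mir-9-1 (0.866), mmu-mir-9-2 (0.864) and mmu-mir-30b (0.863). All 9 of these precursors belong to the 23 with every other library below WT, so the likeness includes the contrast with WT. With the group means subtracted, 4 of the 5 precursors stayed in the list of mmu-mir-26b, 1 in that of mmu-mir-26a-1 and 0 in that of mmu-mir-26a-2.

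The mature 5p sequences of 8 of these 9 precursors are shown, with the seed in capitals, because none of the 8 has the seed of miR-26.
miR-9-5p: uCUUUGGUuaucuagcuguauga
miR-16-5p: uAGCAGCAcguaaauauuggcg
miR-28a-5p: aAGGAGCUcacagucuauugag
miR-136-5p: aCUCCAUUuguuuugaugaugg
miR-192-5p: cUGACCUAugaauugacagcc
miR-3071-5p: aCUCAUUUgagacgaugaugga
The sequence file used had no entry for mmu-mir-30b, so its seed was not compared with that of miR-26. The neighbours of miR-26b, mmu-mir-136 and mmu-mir-3071, overlap by 62 bases on opposite strands of chromosome 12, and mmu-mir-9-1 and mmu-mir-9-2, as well as mmu-mir-16-1 and mmu-mir-16-2, share a mature 5p sequence. The 9 names are thus fewer than 9 independent profiles. The mean of mmu-mir-28a was 30.8 in WT, 21.3 in WT + EtOH, 17.6 in untreated TLR4-KO, and 20.1 with ethanol in TLR4-KO, and that of mmu-mir-9-1, from a family of neuronal miRNAs, was 93.9, 87.9, 87.8 and 88.0 in this order.

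MiR-26 has a GC content below the median, and this base composition moved with the groups over 201 of the 589 precursors, in an analysis added once the values were known. The mean GC content of the mature arms was 43.2% for mmu-mir-26a-1, 38.6% for mmu-mir-26a-2 and 41.7% for mmu-mir-26b, which were 45th, 21st and 35th from the lowest of 201 precursors (median 48.8%). This mean weights both arms alike. The 5p arm had 40.9% in both copies of miR-26a and 33.3% in miR-26b, and the 3p arms had 45.5%, 36.4% and 50.0% in the same order. The copies of miR-26a thus differ in this measure only through their 3p arms, which the score does not separate from the 5p arm. These 201 had a mean score of at least 10 and a sequence. The slope of the score, as deviation from the mean over 12 libraries, per 10 points of GC was -2.60, -2.24 and -2.21 in the WT libraries, -0.518, 1.06 and 1.32 in WT + EtOH, 1.43, 1.41 and 0.753 in untreated TLR4-KO, and -0.432, 1.46 and 0.569 in TLR4-KO + EtOH. Precursors poor in GC were thus relatively high in the 3 WT libraries, as miR-26 was, and no other library had a slope as steeply negative.

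**Figure D2:**
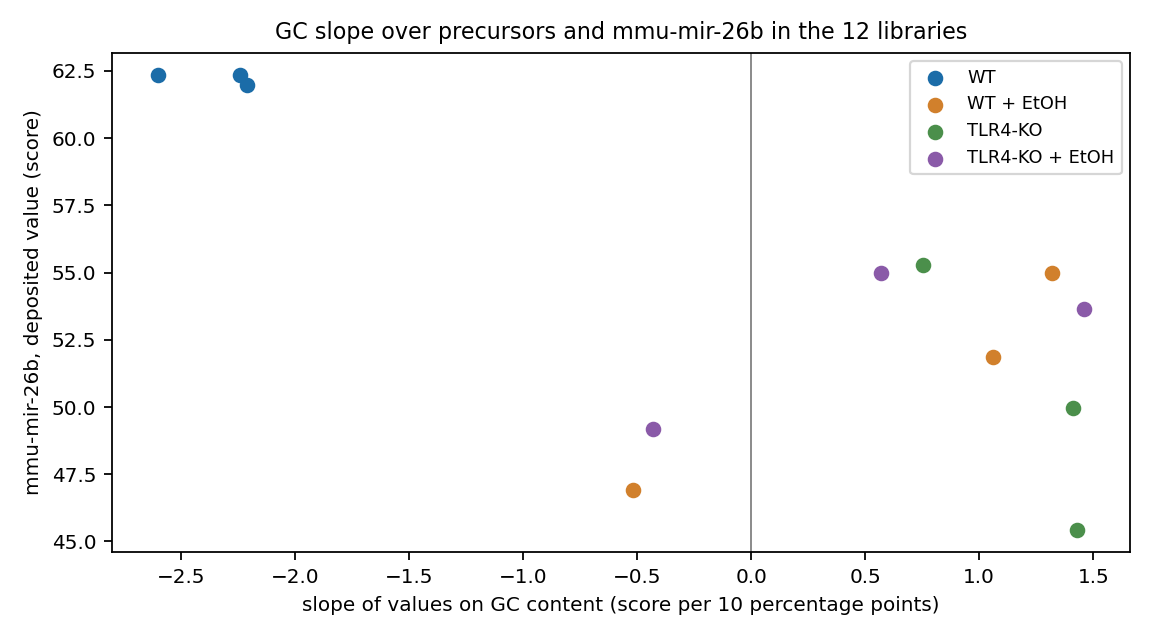
Score of mmu-mir-26b (y axis) against the slope of the score on GC content over 201 precursors (x axis); each point is a library, coloured by group. The 3 WT libraries, with slopes of -2.60 to -2.21, hold the 3 highest values of mmu-mir-26b.

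Among the 59 precursors with a GC content up to that of mmu-mir-26a-1, the median difference was -4.86 in WT + EtOH vs. WT, beside 1.68 in the 142 above it. In TLR4-KO vs. WT these medians were -5.06 and 1.92. Of the 56 precursors of that set outside the family, 18 had a lower difference than mmu-mir-26a-1 in WT + EtOH vs. WT, 19 than mmu-mir-26a-2 and 8 than mmu-mir-26b. In TLR4-KO vs. WT the numbers were 16, 15 and 9. The miR-26a precursors were therefore well within the range of other precursors of low GC content, and mmu-mir-26b was nearer its lower end. The 23 precursors below all WT libraries had a median GC content of 40.2% (20 with a sequence).

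After a linear GC trend was removed from each library, mmu-mir-26b was 59.8, 60.2 and 59.8 in WT, 47.1, 53.1 and 55.8 in WT + EtOH, 47.0, 51.2 and 56.6 in untreated TLR4-KO, and 48.5, 54.8 and 55.1 in TLR4-KO + EtOH. WT remained without overlap for mmu-mir-26b, and likewise for mmu-mir-26a-1, with 113.4 to 113.7 in WT and 103.6 to 112.5 elsewhere. For mmu-mir-26a-2, it did not: this was 111.6, 112.1 and 112.1 in WT, 104.9, 112.0 and 112.5 in WT + EtOH, 103.3, 112.1 and 112.0 in untreated TLR4-KO, and 108.5, 112.0 and 111.6 in TLR4-KO + EtOH. Replicates 2 and 3 of all 3 other groups thus reached WT for mmu-mir-26a-2, and only replicate 1 was clearly below it. In WT + EtOH vs. WT, the difference of mmu-mir-26b was then -7.97 (limma over 201, adjusted p = 0.177), that of mmu-mir-26a-1 -3.57 (adjusted p = 0.462) and that of mmu-mir-26a-2 -2.09 (adjusted p = 0.785). In TLR4-KO vs. WT these were -8.38 (limma, adjusted p = 0.140), -4.12 (adjusted p = 0.353) and -2.78 (adjusted p = 0.591). Without the removal, limma over the same 201 precursors called mmu-mir-26b in both comparisons (adjusted p = 0.0449 and 0.0231), so this call ended with the trend. In TLR4-KO + EtOH vs. WT, mmu-mir-26a-2 differed by -1.20 and mmu-mir-26b by -7.17 with the trend removed, beside -4.51 and -9.61 before. The differences of the family from WT were thus smaller with the trend removed. The amount subtracted in a library depends on GC content alone. The larger reduction for mmu-mir-26a-2 therefore follows from its GC content, the lowest of the 3, and is not a finding about this member. Whether the GC trend came from the tissue or from the preparation of the libraries cannot be told apart, because it coincides with the WT group.

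The WT libraries also differed from the others in their spread. Over the 190 precursors above 0 in all libraries, the median SD was 1.75 in WT, 3.50 in WT + EtOH, 4.28 in untreated TLR4-KO and 3.38 in TLR4-KO + EtOH. The SD of mmu-mir-26b, 0.212 in WT and 3.03 to 4.93 in the other groups, ranked the groups alike. Limma uses 1 variance per precursor for all groups, although the pools of WT were closer to each other.

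Markers of other cells of the cortex were compared as sums of scores, beside the lower miR-26 of the 3 groups. For the choroid plexus and ciliated cells, 10 of 11 precursors were in the table, 9 above 0 and mmu-mir-449a at 0 in all libraries. The highest mean was that of mmu-mir-182 in WT (102.5, beside 82.3 for mmu-mir-204) and that of mmu-mir-204 in the other 3 groups. The sum of the list was 352.0, 414.8 and 407.1 in WT, 326.2, 291.1 and 228.4 in WT + EtOH, 268.6, 310.6 and 284.5 in untreated TLR4-KO, and 296.3, 275.3 and 291.8 in TLR4-KO + EtOH. It was thus highest in the 3 WT libraries, as miR-26 was. In WT + EtOH vs. WT, 7 of the 9 had a difference below 0, with a median of -17.03 (that of mmu-mir-96), beside 152 of 324 precursors and a median of 0. In TLR4-KO vs. WT, 6 of the 9 did, with a median of -13.4, beside 148 of 324 and 0. Most of the list was thus lower than WT, like miR-26. The large falls, however, were those of mmu-mir-96, mmu-mir-182, mmu-mir-183, mmu-mir-200a and mmu-mir-200b. The paper names these same precursors as lowered by alcohol in WT mice. In WT + EtOH vs. WT and TLR4-KO vs. WT, mmu-mir-211 differed by -3.12 and 1.94, and mmu-mir-34c by -0.768 and -0.355. For mmu-mir-34b these differences were 0 and 7.96. Limma called 1 of the 10 in each comparison, in both mmu-mir-96, which fell, beside 1.7% and 2.55% of 589 precursors, and 5 were lower at an unadjusted p below 0.05 in each, with 1 higher in the second. For example, mmu-mir-182 differed by -30.5 and -36.5 (limma, adjusted p = 0.227 and 0.131) and mmu-mir-200b by -22.4 and -15.6 (adjusted p = 0.0616 and 0.163), but mmu-mir-204 by 5.12 and 0.623 (adjusted p = 0.678 and 1). Their part in the scores of miR-26 was not tested.

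The erythroid markers (3 of 3 in the table, mmu-mir-486a the most abundant) summed to 162.2, 163.3 and 151.2 in WT, 150.0, 143.1 and 142.4 in WT + EtOH, 131.3, 140.2 and 141.6 in untreated TLR4-KO, and 126.8, 134.1 and 138.3 in TLR4-KO + EtOH. Like miR-26, this sum was highest in WT, and mmu-mir-451a fell in WT + EtOH vs. WT (limma, -14.6, adjusted p = 0.0346) and in TLR4-KO vs. WT (limma, -17.6, adjusted p = 0.00948). The other 2 erythroid markers were not called: mmu-mir-486a differed by -0.383 and 0.487 in these comparisons (limma, adjusted p = 1 in both), and mmu-mir-144 by 1.20 and -4.13 (adjusted p = 1 in both). The neuronal markers (9 of 9, mmu-mir-138-1 the most abundant) summed to 507.5, 519.5 and 515.8 in WT, 573.2, 545.3 and 538.6 in WT + EtOH, 523.2, 539.6 and 546.8 in untreated TLR4-KO, and 554.5, 542.1 and 512.4 in TLR4-KO + EtOH. This sum was above all WT libraries in WT + EtOH and in TLR4-KO, where miR-26 was below them, and overlapped WT in TLR4-KO + EtOH. The part of blood or neuronal content in the score of miR-26 was not tested.

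For the sums of the remaining markers, unlike miR-26, the groups overlapped WT or lay on both sides of it, with 1 exception among the oligodendrocyte sums. The sum of the leukocyte and microglia markers (5 in the table, 4 above 0, mmu-mir-223 at 0, mmu-mir-150 the most abundant) was 160.3 to 161.0 in WT, with 147.7 to 167.3 in WT + EtOH, and it was 143.1 to 163.2 in untreated TLR4-KO and, with ethanol, 151.6 to 163.1. That of the vessel markers (3 of 3, mmu-mir-143 the most abundant) was 196.1 to 203.8, 194.7 to 197.3, 192.3 to 201.8 and 195.3 to 200.6 in this order. That of the oligodendrocyte markers (3 of 3, mmu-mir-338 the most abundant) was 42.8 to 45.6, 41.0 to 67.9, 29.2 to 36.5 and 40.4 to 45.2. The exception was TLR4-KO, where this last sum was below WT in all 3 libraries. Among the leukocyte markers, mmu-mir-150 rose in WT + EtOH vs. WT (limma, 7.41, adjusted p = 0.0444) and in TLR4-KO vs. WT (limma, 9.28, adjusted p = 0.00958). In contrast, mmu-mir-146a differed by -6.21 and -12.0 (limma, adjusted p = 0.806 and 0.217) and mmu-mir-142a by -2.81 and -11.8 (adjusted p = 1 and 0.532), and the median of the list was -1.40 and -2.22. The vessel markers had differences of both signs in WT + EtOH vs. WT, with -6.45 for mmu-mir-143 (limma, adjusted p = 0.0649), -6.58 for mmu-mir-126a (adjusted p = 0.289) and 8.09 for mmu-mir-145a (adjusted p = 0.151). Like miR-26, mmu-mir-143 was among the 23 precursors below all WT libraries. The part of these cells in the score of miR-26 was not tested. The markers of other organs (6 of 8 in the table) were at 0 in all libraries, and 9 of 9 neuronal markers were above 0 in these cortex libraries. As 265 of the 589 precursors were at 0 in all libraries and the table holds no counts, a 0 does not show absence.

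The miR-26 family was set beside miRNAs linked to the functions of its host genes and to its target Ezh2. Of the neuronal miRNAs repressed by REST, 10 of 10 were above 0, and limma called 0 in WT + EtOH vs. WT and 0 in TLR4-KO vs. WT, with 3 lower at an unadjusted p below 0.05 in each, the miR-9 precursors. Their median difference was 1.40 and 1.06, beside 0 over the 324 precursors in both. Of the 10, 5 had a difference below 0 in the first comparison and 4 in the second, beside 3 of 3 for miR-26. For example, mmu-mir-9-1 differed by -5.96 in WT + EtOH vs. WT (limma, adjusted p = 0.182), and mmu-mir-212 by 3.05 (adjusted p = 1).

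The other known repressors of Ezh2, of which 3 of 5 were above 0, had a median difference of 1.84 in WT + EtOH vs. WT and -0.862 in TLR4-KO vs. WT, with 0 called by limma and 0 at an unadjusted p below 0.05. Among them, mmu-mir-138-1 differed by 1.84 in WT + EtOH vs. WT (limma, adjusted p = 1). The median of this list thus had opposite signs in the 2 comparisons, whereas the miR-26 precursors were below WT in both.

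For comparison, the same values were taken from 2 larger families, let-7 and miR-30. In WT + EtOH vs. WT, 7 of 12 let-7 precursors and 4 of 6 miR-30 precursors had a difference below 0, beside 3 of 3 of miR-26 and 152 of 324 precursors. The median was -1.18 for let-7 and -1.91 for miR-30. In TLR4-KO vs. WT, 5 of 12 and 4 of 6 were below 0, beside 3 of 3 of miR-26 and 148 of 324, with medians of 1.07 and -0.969. Limma called 0 members of let-7 and 0 of miR-30 in these comparisons, with 4 and 1 unadjusted in the first and 1 and 2 in the second. These include precursors that were higher than WT, unlike miR-26. They were mmu-let-7b in both comparisons (limma, 7.11 and 9.56, adjusted p = 0.233 and 0.0874) and mmu-mir-30c-1 in the second (3.06, adjusted p = 0.349). The member with the lowest difference was mmu-mir-30b, with -7.23 in WT + EtOH vs. WT (limma, adjusted p = 0.244) and -8.53 in TLR4-KO vs. WT (adjusted p = 0.139). In WT + EtOH vs. WT, mmu-let-7g (limma, -6.56, adjusted p = 0.190) and mmu-let-7f-2 (-6.53, adjusted p = 0.196) also lay within the range of miR-26. In TLR4-KO vs. WT, these let-7 precursors differed by 1.15 and -0.593.

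**Figure D3:**
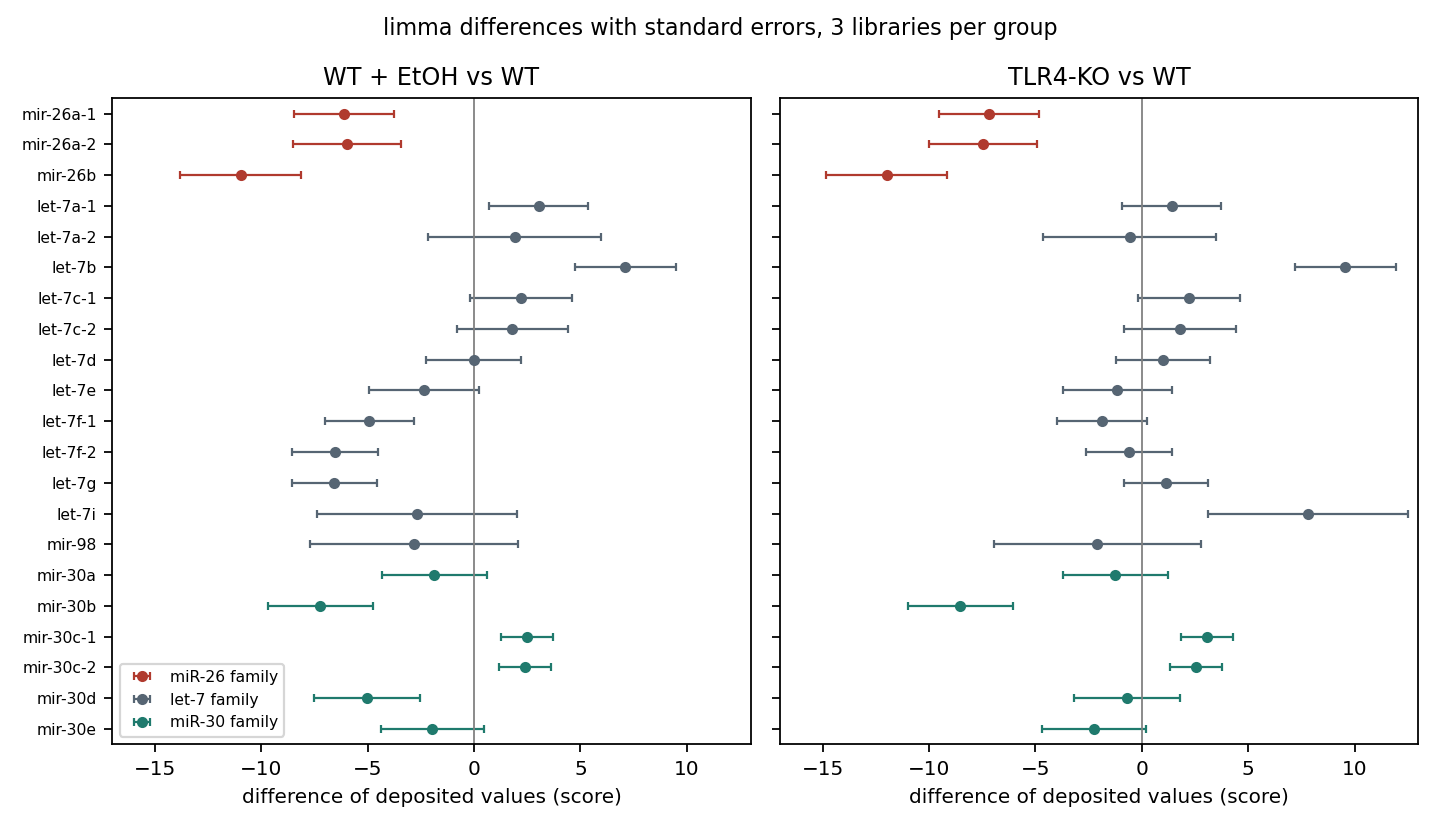
Differences in score (x axis) with their standard errors for precursors of the miR-26, let-7 and miR-30 families (y axis), from limma with 3 libraries per group; left, WT + EtOH vs. WT, and right, TLR4-KO vs. WT. All 3 miR-26 precursors lie below 0 in both, from -5.99 to -10.97 on the left and from -7.19 to -11.99 on the right.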

How the data were processed

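Small RNA of the cortex was measured in 12 libraries of 4 groups. According to the submitters' processing notes, FastQC 0.11.6, cutadapt, Bowtie2 2.2.5 and TopHat were used with GRCm38. The authors deposited 1 normalized value per precursor and library, in a unit called score here. The study's methods name a trimmed mean of M values for its counts, whereas the deposited values, as checked, share the same levels at the first ranks of each library, as after quantile normalization. The table holds no counts, so depth and counting error could not be computed from it, and read totals printed in the paper were not used. Groups and replicate numbers were taken from the sample titles.

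Values were used as deposited. Differences were tested in R 4.3.3 by limma 3.58.1, with default lmFit, contrasts.fit and eBayes steps. The fit took all 12 libraries, a mean for each group, and no covariate. Prior degrees of freedom were 0.308. P-values were adjusted by Benjamini-Hochberg over 589 precursors, and an adjusted p below 0.05 was called. Exact two-sided permutation tests used scipy 1.17.1, numpy 2.4.6 and pandas 2.3.3 in Python 3.11.15, and figures matplotlib 3.10.9. The procedure was tested on simulated data.

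Positions came from GENCODE M21 and sequences from RefSeq, both on GRCm38. The members and lists were chosen with earlier results of these data known. Alternatives comprised other normalizations, ranks, filters, variance models, a replicate block, merged copies and each library left out. Chosen after seeing the data were the GC analysis, ranks from the top, the fit of precursors with a mean of at least 10 and a sequence, and the fit of replicates 2 and 3 only.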

Additional observations from a re-analysis of the deposited data

How the results depend on the processing

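With 3 pools per group, a missed call does not show that miR-26 was equal. Over 216 alternative values of the members against WT, 0 changed direction and 23 came to pass the threshold of limma. Many of these settings leave the difference as it is and change only its standard error. As all libraries of the other groups lay below WT, leaving out 1 library could not change a direction either. The count of 0 is therefore not separate support for the direction. MiR-26b passed the threshold of limma on several scales. With within-library ranks (counted from the lowest, so that they move with the number of precursors above 0) it differed by -45.0 places in WT + EtOH vs. WT (adjusted p = 0.0101; 0.0101 to 0.336 over its alternatives), -56.7 in TLR4-KO vs. WT (0.0027; 0.0027 to 0.234), -37.5 in TLR4-KO + EtOH vs. WT (0.0251; 0.0251 to 0.511), and 64.2 for the difference of the ethanol effects (0.0124; 0.0124 to 0.389). With ranks counted from the top, these were -25.7 (0.265), -29.0 (0.111), -22.5 (0.418) and 32.2 (0.196), so this call was lost. Its difference of -10.97 in WT + EtOH vs. WT had an adjusted p of 0.0472 with precursors above 0 in at least 3 libraries, 0.0273 with robust eBayes and a trend, and 0.0449 with the 201 precursors with a sequence; its -11.99 in TLR4-KO vs. WT had 0.0352, 0.00841 and 0.0231. With the replicate block, mmu-mir-26b had -10.97 (adjusted p = 0.04), -11.99 (0.02) and -9.61 (0.0491) against WT. The residuals of libraries with the same number correlated by -0.109 to 0.153, and nothing in the labels pairs them. Between TLR4-KO and TLR4-KO + EtOH, these correlations were 0.133, 0.101 and 0.153. In that comparison, no alternative called a member (limma, adjusted p of at least 0.628). Robust eBayes gave mmu-mir-26a-1 -7.19 in TLR4-KO vs. WT (0.0225; 0.0225 to 0.515). With replicates 2 and 3 only, mmu-mir-26a-1 had -4.63, -4.19 and -4.63 (0.023, 0.0302 and 0.023) and mmu-mir-26a-2 -4.01, -4.44 and -4.01 (0.0291, 0.0273 and 0.0303) in WT + EtOH, untreated TLR4-KO and TLR4-KO + EtOH, each vs. WT. With only the groups compared, TLR4-KO + EtOH vs. WT gave -4.77 (0.00969) and -4.51 (0.0308). Leaving out 1 library, mmu-mir-26a-1 ranged from -7.08 to -4.63 in WT + EtOH vs. WT, with a call without replicate 1 of TLR4-KO (adjusted p = 0.0316; 0.023 to 0.787 over its alternatives), and mmu-mir-26b from -14.5 to -9.59 in TLR4-KO vs. WT, with a call without replicate 3 of TLR4-KO (0.0305). The small differences between the other groups changed sign. In TLR4-KO + EtOH vs. TLR4-KO, leaving out 1 library gave -0.579 to 3.91 for mmu-mir-26a-1, -0.0751 to 4.46 for mmu-mir-26a-2 and -0.0210 to 4.90 for mmu-mir-26b, and replicates 2 and 3 gave -0.434 for mmu-mir-26a-1. In TLR4-KO + EtOH vs. WT + EtOH the ranges were -0.145 to 2.31, -0.509 to 2.68 and -0.813 to 3.22. The gap between miR-26a and mmu-mir-26b ranged from -1.08 to 1.94 and from -1.33 to 1.08 in these 2 comparisons, and in ranks was -4.83 and -2.17. Numbers of called precursors moved as well. WT + EtOH vs. WT had 10, but 19 with ranks, 21 above 0 in 3 libraries, 18 with robust eBayes, 26 with replicates 2 and 3, 5 with ranks from the top, 16 with a sequence, 2 without the GC trend and 4 to 18 without 1 library. TLR4-KO vs. WT had 15, but 27, 31, 31, 26, 4, 26 and 4 in the same 7 settings, and 24 with the block. TLR4-KO + EtOH vs. WT had 11, but 18 with the groups compared, 19 with the block, 24 with replicates 2 and 3, 5 with ranks from the top, 7 with a sequence, 3 without the GC trend and 7 to 17 without 1 library. TLR4-KO + EtOH vs. TLR4-KO had 2, but 0 by limma with quantile normalization, the groups compared, replicates 2 and 3 or ranks from the top, and 0 to 4 without 1 library. TLR4-KO + EtOH vs. WT + EtOH had 3, but 1 with quantile normalization, robust eBayes or a sequence, 0 with the groups compared, replicates 2 and 3 or ranks from the top, and 0 to 3 without 1 library. The difference of the ethanol effects had 7, but 25 with ranks, 13 above 0 in 3 libraries, 3 with the block, 0 with ranks from the top, 1 without the GC trend and 2 to 15 without 1 library. The precursors most like each member also depended on the measure: with Spearman rho, 2, 3 and 2 of 5 were shared for mmu-mir-26a-1, for mmu-mir-26a-2 and for mmu-mir-26b, and with the group means subtracted, 1, 0 and 4. The cause of these shifts was not tested.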
